A study of Mus musculus with 15 samples.

Results

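The replication-dependent histone genes of the mouse were examined in CD4+ T cells by ATAC-seq, in which the Tn5 transposase cuts open DNA and leaves sequencing adapters there. The genes were taken by name from RefSeq's annotation of GRCm38.p6 (mm10): protein-coding genes whose symbol starts H2ac, H2bc, H3c or H4c or is H1f1 to H1f6, or whose older name starts Hist1h, Hist2h or Hist3h. This gave 66 of 21900 protein-coding entries, with 6 genes for the linker histone H1, 18 for H2A, 18 for H2B, 12 for H3 and 12 for H4. Overlapping peaks of 15 libraries were merged into regions, 83743 regions were seen in at least 2 libraries, and 47 of them lay within 1 kb of these genes. The cells came from IRF5+/+ mice (wild type) or from IRF5-/- mice (knockout, without the interferon regulatory factor 5 gene), either untreated (0 h) or after 72 h of activation in vitro. There were 4 wild-type libraries (1 to 4) and 3 knockout libraries (1, 3 and 4) at 0 h, and 4 of each genotype (1 to 4) at 72 h. The labels give neither the activating agent nor the mouse strain, age or number of animals. Nothing in them states whether the libraries within a group had different source animals. The p-values therefore cover only variation from library to library, and this may be technical.

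Replication-dependent histone genes make the bulk of the histones that package newly copied DNA, and they are transcribed mainly in S phase. They are short, mostly lack introns, lie in clusters of many near-identical copies, and end their mRNAs in a stem-loop instead of a poly(A) tail. H2A, H2B, H3 and H4 form the nucleosome core, and H1 binds the linker DNA between nucleosomes. Resting CD4+ T cells stay outside the cell cycle and begin to divide after stimulation through the T cell receptor.

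The 66 genes lie in 6 blocks. On chromosome 13, 18 genes lie within 121.8 kb (chr13:21715711-21837530), 5 within 8.54 kb (chr13:22035122-22043658), 29 within 233.4 kb (chr13:23531044-23764412), and the germ-cell pair H2bc1 and H2ac1 lies apart at chr13:23933725-23934913. On chromosome 3, 10 genes lie within 50.3 kb (chr3:96219885-96270192), and on chromosome 11 the pair H2bu2 and H2aw lies within 6.28 kb (chr11:58948911-58955192). Strand was taken from RefSeq's promoter table, which lacks H2bc4 and H2bc21 among others. In 10 places an H2A gene and an H2B gene with an entry are read away from each other. They share a gap of 163 to 280 bp. Pairs with H2bc4 or H2bc21 could not be counted. A named region below carries the names of the genes it overlaps, and the values of such a region belong to all of them together.

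The sequences that the results below turn on are upstream sequences from RefSeq promoters of GRCm38.p6, 5′ to 3′ on the strand of the gene, with matches to 5 motifs in capitals. Each is the 150 bases before the gene start, except that of H2bc22, which is the 239-base gap between the starts of H2ac22 and H2bc22. The motifs, searched on both strands in the 300 bases from 250 before to 50 after the start, were the CCAAT box, the TATA box as TATAAA, the octamer ATTTGCAT known from H2B promoters, AAACACA known from H1 promoters, and GGTCCG known from H4 promoters. The linker histone genes come first, since H1f2 had the highest peak of all regions here, and H1f3 and H1f5 changed in height or extent with activation.
H1f2 (chr13:23738657-23738806, plus strand): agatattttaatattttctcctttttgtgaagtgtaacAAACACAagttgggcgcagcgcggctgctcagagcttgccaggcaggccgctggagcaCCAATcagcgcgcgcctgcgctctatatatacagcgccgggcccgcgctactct
H1f3 (chr13:23554882-23555031, plus strand): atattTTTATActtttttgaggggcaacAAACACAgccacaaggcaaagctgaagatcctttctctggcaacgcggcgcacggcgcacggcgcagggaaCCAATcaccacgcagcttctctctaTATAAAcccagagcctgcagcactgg
H1f5 (chr13:21780626-21780775, minus strand): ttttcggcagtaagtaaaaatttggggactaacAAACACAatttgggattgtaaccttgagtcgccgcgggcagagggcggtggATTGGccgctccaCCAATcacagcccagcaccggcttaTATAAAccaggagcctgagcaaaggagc
The next 2 stand for the core histone genes with the highest shared peak and with the largest decrease.
H2bc22 (chr13:21787249-21787487, plus strand): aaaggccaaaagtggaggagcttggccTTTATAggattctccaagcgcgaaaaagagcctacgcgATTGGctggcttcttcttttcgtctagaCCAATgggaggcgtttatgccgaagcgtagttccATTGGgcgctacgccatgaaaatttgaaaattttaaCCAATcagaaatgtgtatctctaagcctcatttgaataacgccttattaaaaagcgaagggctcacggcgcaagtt
H2bu2 (chr11:58948761-58948910, plus strand): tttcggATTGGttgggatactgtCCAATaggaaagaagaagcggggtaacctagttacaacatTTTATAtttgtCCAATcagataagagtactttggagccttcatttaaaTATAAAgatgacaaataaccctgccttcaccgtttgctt
The start of H3c2 gained in height with activation and that of H4c3 lost.
H3c2 (chr13:23752195-23752344, plus strand): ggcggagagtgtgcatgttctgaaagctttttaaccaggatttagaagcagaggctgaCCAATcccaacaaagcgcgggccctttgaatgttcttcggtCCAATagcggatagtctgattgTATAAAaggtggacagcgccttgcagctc
H4c3 (chr13:23698459-23698608, minus strand): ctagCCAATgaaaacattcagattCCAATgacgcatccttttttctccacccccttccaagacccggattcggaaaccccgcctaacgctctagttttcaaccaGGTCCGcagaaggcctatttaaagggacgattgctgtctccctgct
The last 4 are copies whose upstream sequences match each other, among them H4c17, the lowest of the regions called in all libraries.
H4c17 (chr13:21811596-21811745, plus strand): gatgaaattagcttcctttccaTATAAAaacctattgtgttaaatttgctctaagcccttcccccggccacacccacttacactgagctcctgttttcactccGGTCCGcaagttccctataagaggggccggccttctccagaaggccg
H4c18 (chr13:21832198-21832347, minus strand): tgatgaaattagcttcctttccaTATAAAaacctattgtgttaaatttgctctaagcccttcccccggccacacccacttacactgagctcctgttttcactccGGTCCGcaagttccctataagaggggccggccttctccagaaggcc
H2bc23 (chr13:21810200-21810349, minus strand): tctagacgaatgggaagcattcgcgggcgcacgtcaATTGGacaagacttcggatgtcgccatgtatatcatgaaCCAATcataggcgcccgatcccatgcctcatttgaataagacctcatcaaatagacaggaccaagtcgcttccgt
H4bc24 (chr13:21833593-21833742, plus strand): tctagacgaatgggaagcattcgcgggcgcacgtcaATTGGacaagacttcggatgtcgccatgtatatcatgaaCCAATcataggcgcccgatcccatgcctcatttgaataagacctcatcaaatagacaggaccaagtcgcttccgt

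Of the 66 genes, 61 had a promoter entry in the table, 1 of them with 2 starts, which gave 62 windows. CCAAT was found in 54 of 62 windows against 37.4% of all 32851 promoters, in every H1, H2A, H2B and H3 window and in 3 of 11 H4 windows. TATAAA was found in 35 of 62 (13.6% of all promoters). The octamer was found in 7 of 18 H2A and 7 of 17 H2B windows and in none of the other histone windows (1.74% of all promoters). The windows of a divergent pair overlap, so 1 site can count for both genes and the counts are not independent. AAACACA was found in 5 of 6 H1 windows (7.18%), and GGTCCG in 10 of 11 H4 windows (8.25%). A match is a description of the letters only.

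Depth was 20.5 M to 29.0 M fragments per library after duplicates were removed, and a library held 29994 to 69086 peaks. The height of a peak is its pileup, the number of fragments over its summit, given here in FPM, its per-million value after division by the library's fragments. The median pileup over the 21176 regions called in all 15 libraries was 3.88 to 5.07 FPM in the wild-type and 1.80 to 4.38 in the knockout libraries at 0 h, and 2.29 to 2.90 and 2.14 to 2.35 at 72 h. Knockout library 3 at 0 h was the lowest, and its list was the shortest. Because this median differs between groups over the whole genome, heights are also given as relative pileup, the pileup of a region divided by that median in the same library. Peaks lay near 8 of 8 T cell marker genes, Cd4 included, in all 15 libraries. Near the CD8 genes, Cd8b1 had a peak in 15 libraries and Cd8a in 6 of 7 untreated and 1 of 8 activated ones. Of the B cell markers reported here Cd79a and Pax5 had peaks in 15 libraries and Cd79b and Ms4a1 in none, of 5 myeloid markers Itgam had peaks in 15, Cd14 in 14, Csf1r in 2 and Lyz2 and Adgre1 in none, and none of 3 NK cell markers had a peak. The highest peak near these genes ranged from 0.727 to 5.58 FPM for the B cell and from 0.363 to 2.098 for the myeloid markers. Marker peaks moved with activation: relative to the library all 8 T cell markers fell (log2 changes −1.79 to −0.23), as did Cd8b1 (−1.37, limma adjusted p = 1.23e-13) and Cd79a (−0.50, adjusted p = 5.03e-06), and Pax5 rose (1.18, adjusted p = 1.40e-12, and 0.56 in FPM, adjusted p = 0.00924). Each of these changes is that of 1 region per gene, the one within 1 kb with the highest mean pileup. Other regions of these genes may differ (Cd28 had 10 regions and Tcf7 had 7). The part of other cells in the results below was not tested. A peak lay near Irf5 in all 15 libraries, and the peak lists do not check its deletion.

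Most histone genes had peaks before activation as well as after it. Of the 47 regions, 38 were called in all 15 libraries (80.9%), against 25.3% of all 83743 regions and 30.4% of the 53552 regions within 1 kb of any protein-coding gene. Single libraries held 40 to 46 of the 47. Regions overlapped 59 genes and lay within 1 kb of 61. No region lay within 1 kb of H2bc23, H2ac23, H4bc24, H2bc1 and H2ac1, and the only region within 1 kb of H1f6 was that of H4c3, 976 bp away. H1f6, H2bc1 and H2ac1 are known for expression in germ cells. The authors' 4 final lists, 1 per group, all held each of the 38 regions. The rule took regions up to 1 kb away: the region beside H3c15 and H2ac19, 8 bp from the nearest gene, was the only one of the 38 that overlapped no histone gene, and the nearest ones left out lay 2448 bp from H4c3 and 3331 bp from H2bc18.

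The 38 regions were higher and broader than the median region near genes. Their median relative pileup over the 15 libraries was 1.75, against 1.08 for the 16286 regions near any gene that were called in all libraries. Of the 38, 31 lay above that median, 19 in the top 25% and 1 in the top 10%. Regions near any gene include those anywhere within long genes, whereas most histone genes are short. Regions of some other genes were high as well. The highest regions of 25 genes of histone mRNA supply and of 8 histone genes outside the clusters, both described below, had medians of 2.02 and 1.90. Those regions were picked as the highest of each gene and the 38 were not, so these medians are not like for like with 1.75. Median width of the merged region was 1582.5 bp against 1230.0 bp near genes. The bases covered by peaks in a region had a median of 1139.5 in wild-type and 929.5 in knockout cells at 0 h, and of 1287.5 and 1280.0 at 72 h, whereas near all genes it was 975 and 791 at 0 h and 933 and 858 at 72 h. Regions that overlap 2 or more histone genes had a median relative pileup of 1.88 (15 regions), and those that overlap 1 gene of 1.38 (22 regions).

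H1f2, a gene for linker histone H1 (chr13:23738434-23740374), had the highest level, 2.52 times the library median over all libraries, at the 90.9th percentile of regions near genes. Relative pileup at H1f2 was 2.54, 2.56, 2.58 and 2.41 in wild-type and 2.28, 2.66 and 2.32 in knockout libraries at 0 h, and 2.70, 2.35, 2.75 and 2.58 in wild-type and 2.73, 2.63, 2.38 and 2.42 in knockout libraries at 72 h. The 4 groups overlapped. The next levels belonged to divergent pairs of core histone genes, H2ac22/H2bc22 (2.24), H2ac8/H2bc8 (2.104), H2ac11/H2bc11 (1.98) and H2ac15/H2bc15 (1.97), each with an H2A and an H2B gene that share a gap. The lowest levels were those of 4 H4 genes and 1 H1 gene: H4c17 (0.387, the 5.77th percentile), H4c12 (0.687), H4c11 (0.8285), H4c9 (0.959) and H1f1 (0.980). The median level was 1.72 over the 5 H1 regions, 1.86 over H2A, 1.88 over H2B and 1.84 over H3, and 1.11 over the 11 H4 regions called in all libraries. Most H4 genes have a region to themselves, and the classes share regions, so these medians are not independent.

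**Figure D1:**
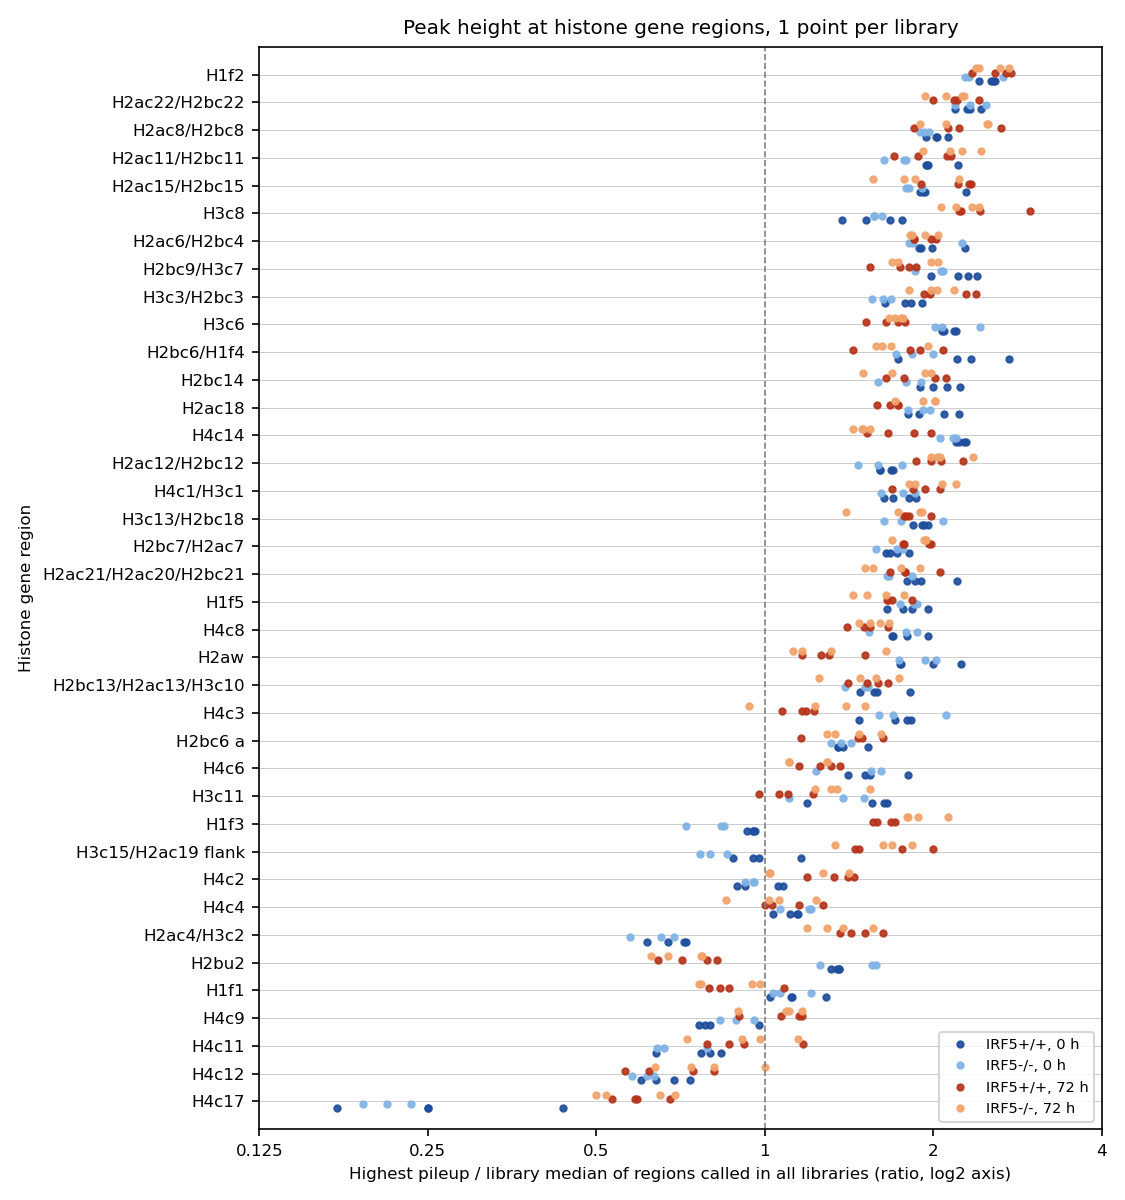
Relative pileup (highest pileup in a region divided by the library's median over the 21176 regions called in all libraries, log2 axis) at the 38 histone gene regions, 1 point per library and 1 colour per group, ordered by level. H1f2 lies highest at about 2.52 and H4c17 lowest at 0.387.

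The place of the highest summit differed between genes. At 20 regions with 1 histone gene of known strand, it lay past the end of the gene in all 15 libraries at H1f2, H1f5 and H4c17, and in 13 of 15 at H4c8. At H1f2 it lay 974 to 1034 bp from the gene start at 0 h and 861 to 975 bp at 72 h, in a gene of 725 bp. At the other H4 regions, and at all H2A, H2B and H3 regions of this kind, it lay upstream or inside the gene in every library. In the divergent pair H2ac22/H2bc22 it lay 114 to 57 bp before the start of H2bc22 at 0 h, within the gap printed above, and 140 to 3 bp before it at 72 h.

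At the gene starts themselves, 47 of the 62 promoter windows were covered by a peak in all 15 libraries, against 33.1% of all 32851 windows. In 9 windows no library had a peak, and 6 were covered in some libraries only. Of the 10 divergent H2A and H2B pairs, 7 had both windows covered in all libraries and 3 had neither covered in any: H2bc23 with H2ac23, H2ac24 with H4bc24, and the germ-cell pair H2bc1 with H2ac1.

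Windows of 12 genes form 6 pairs of near copies. The windows of H2bc23 and H4bc24 matched at 300 of 300 bases and those of H2ac23 and H2ac24 at 200 of 200 aligned bases. H4c17 and H4c18 matched at 298 of 299 aligned columns, H3c15 and H3c14 at 284 of 285, H2ac19 and H2ac18 at 251 of 260, and H4c11 and H4c12 at 274 of 286. Of these 12 windows, 9 were not covered in all libraries, against 6 of the 50 others. Both windows of H4c11 and H4c12 and that of H2ac18 were covered in all 15 libraries. No source used here says how reads that match both copies were placed, so absent peaks at such copies and reads lost to their partner cannot be told apart, and all values at these 12 genes are uncertain for that reason.

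Activation was examined first by height in FPM. Of the 38 regions, 2 were higher after activation (8.89% of the 21176 regions tested, 7.34% of those near genes) and 27 were lower (65.4%, and 68.7% near genes), by limma with Benjamini-Hochberg adjustment over all 21176 regions at an adjusted p under 0.05. The median change was −0.66 on the log2 scale at the histone genes, −0.66 over all regions and −0.69 near genes. Fold enrichment over local background gave 2 higher (8.62% of all regions) and 30 lower (51.3%), with a median of −0.46 against −0.24 over all regions. Quantile-normalized pileup gave 16 higher (32.5%) and 7 lower (36.1%), with a median of 0.11 against −0.03, so the place of the histone genes among all regions depended on the measure. The 2 higher regions were H4c17 (log2 change 0.71, adjusted p = 8.16e-04) and H2ac4/H3c2 (0.48, adjusted p = 0.0240). Wild-type cells alone had 0 higher (5.14% of regions) and 28 lower (65.2%), and knockout cells 2 higher (7.57%) and 8 lower (39.7%). All cells at 72 h were activated and all at 0 h were not, so activation and time in culture cannot be told apart. In bulk samples, a lower peak in every cell and a peak in fewer cells cannot be told apart either.

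Relative to the library median, the histone genes split. Of the 38 regions, 11 were higher after activation (34.4% of the 21176 regions, 31.5% near genes), 11 were lower (39.1%, and 41.1% near genes) and 16 were neither, with a median log2 change of −0.03 against −0.04 over all regions. The middle 50% of the changes spanned −0.20 to 0.26 here and −0.37 to 0.41 over all regions. Wild-type cells alone had 9 higher (29.8%) and 12 lower (33.3%), and knockout cells 11 higher (29.3%) and 7 lower (32.9%). Of the 22 regions that changed, 21 had the same sign in both genotypes, and H3c11 did not. The 22 were called on the mean of both genotypes' changes, which itself favours a shared sign. Of all 38 regions, 32 had the same sign in both. At 8 regions all activated libraries lay above all untreated ones within each genotype (21.3% of all regions) and at 5 all lay below (23.7%). Among regions that overlap genes of a class, 1 H1, 3 H2A, 3 H2B, 3 H3 and 4 H4 regions were higher and 2, 1, 3, 3 and 4 were lower. H4c17, H2ac4/H3c2 and H1f3 were above 0, and all 11 lower regions below 0, in FPM, relative pileup, quantile-normalized pileup and fold enrichment. Each of the other 8 regions that rose relative to the library was below 0 in FPM, in fold enrichment or in both.

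**Figure D2:**
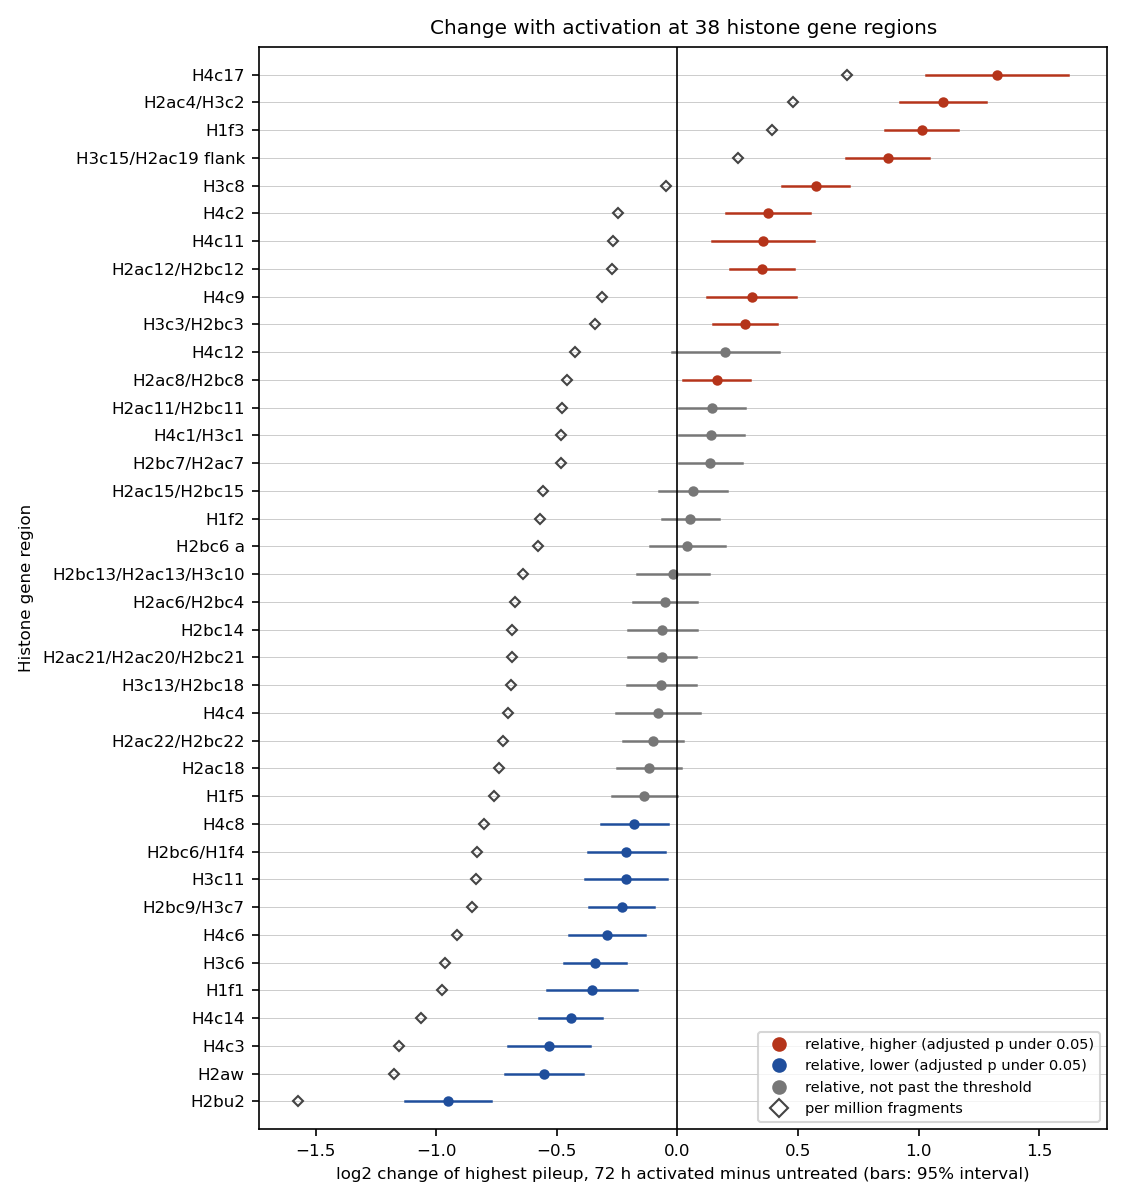
Log2 change of highest pileup with activation (mean of both genotypes) at the 38 regions, as relative pileup (points, with 95% intervals) and FPM (open diamonds). Relative changes run from −0.95 at H2bu2 to 1.33 at H4c17, and the FPM value lies lower by the same amount at every region, since the scales differ by 1 factor per library.

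Among the linker histone genes, H1f3 rose relative to the library, H1f1 fell, and H1f5 changed in extent. Relative pileup at H1f3 (chr13:23554928-23556525) was 0.931, 0.953, 0.959 and 0.953 in wild-type and 0.835, 0.723 and 0.844 in knockout libraries at 0 h, and 1.56, 1.59, 1.71 and 1.68 in wild-type and 2.12, 1.88, 1.80 and 1.79 in knockout libraries at 72 h. Every activated library lay above every untreated one. The fitted change was 1.01 on the log2 scale (SE 0.0752), a 2.02-fold rise, with an adjusted p of 8.05e-17 by limma with Benjamini-Hochberg adjustment. In FPM, H1f3 was 4.35 ± 0.559 (SD, n = 4) in wild-type and 2.74 ± 1.27 (SD, n = 3) in knockout cells at 0 h, and 4.36 ± 0.423 (SD, n = 4) and 4.28 ± 0.214 (SD, n = 4) at 72 h. In FPM the groups overlapped and the change did not pass (0.39, limma adjusted p = 0.0614). Peaks covered H1f3 from 104 bp before the start to 1493 bp after it at the widest. At 0 h the highest summit lay 7 to 19 bp before the start in 3 libraries and 1187 to 1193 bp after it, past the end of the gene, in 4, and at 72 h it lay 49 to 156 bp after the start in 6 of 8 libraries and 976 or 982 bp after it in the other 2.

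Among the 62 windows, that of H1f5 was the only one covered in all activated and no untreated libraries. The window (chr13:21780576-21780875) was covered by a peak in 0 of 7 untreated and 8 of 8 activated libraries (stratified exact p = 0.000408, the smallest it can give, adjusted p = 0.0151 over 14955 windows). Of those windows 4.35% were more often covered after activation and 0.321% less often. At 0 h the main peak of H1f5 began 73 to 1010 bp after the gene start, and at 72 h it began 54 to 81 bp before it. The highest summit stayed past the end of the gene, 1127 to 1177 bp from the start at 0 h and 1079 to 1132 bp at 72 h. Its height relative to the library did not pass the test (log2 change −0.14, limma adjusted p = 0.0629). Without knockout library 2, 3 or 4 at 72 h the adjusted p of the window was 0.0508, 0.0503 or 0.0502. H1f5 was chosen for this account after its peaks were seen.

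Relative pileup at H1f1, a linker histone gene at the edge of the large block (chr13:23763442-23764094), was 1.29, 1.12, 1.11 and 1.02 in wild-type and 1.21, 1.06 and 1.03 in knockout libraries at 0 h, and 0.833, 0.863, 1.08 and 0.797 in wild-type and 0.771, 0.947, 0.764 and 0.979 in knockout libraries at 72 h. Activated libraries were mostly lower, with some overlap in wild-type cells. The log2 change was −0.35 (SE 0.0922, limma adjusted p = 6.73e-04) relative and −0.98 in FPM (adjusted p = 3.62e-06). H2bc6/H1f4, a region of an H2B gene and a linker histone gene, had a relative change of −0.21 (limma adjusted p = 0.0152), and without wild-type library 1 at 0 h, knockout library 4 at 0 h or wild-type library 2 at 72 h its adjusted p was 0.0528 to 0.0677. H1f2 did not pass relative to the library (0.05, limma adjusted p = 0.414).

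**Figure D3:**
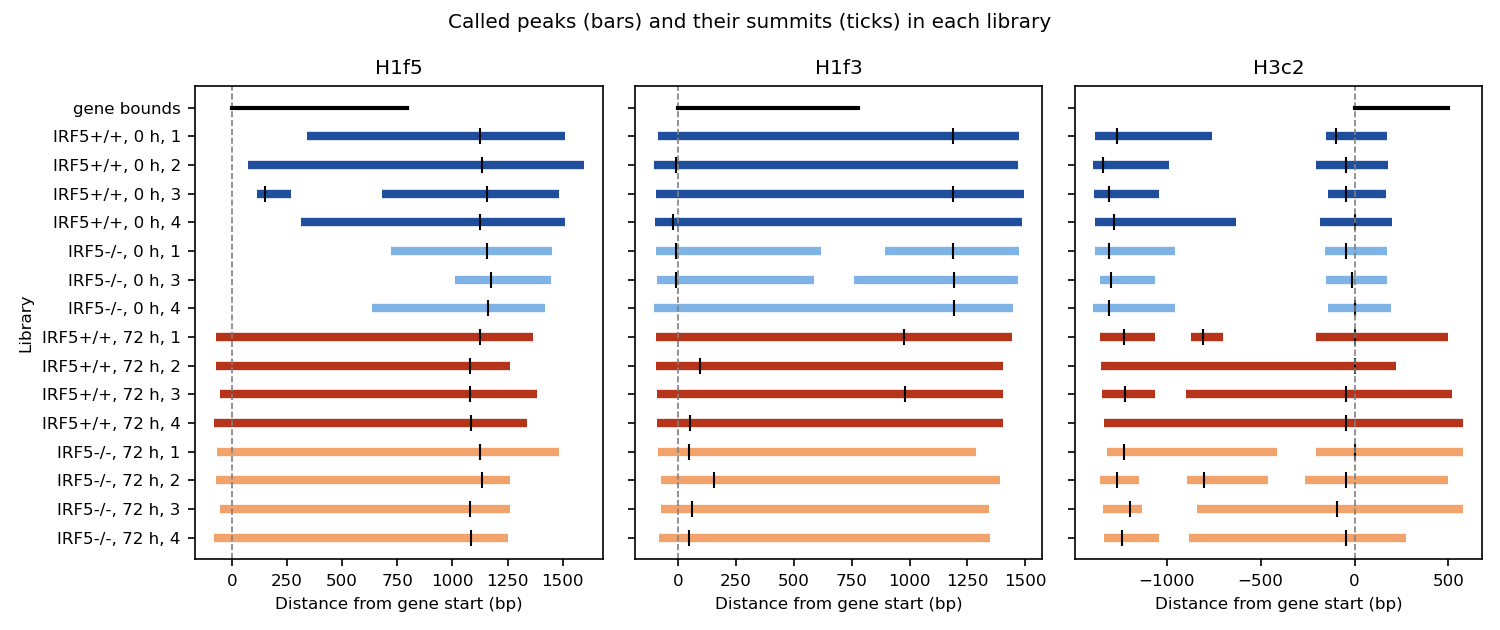
Called peaks (bars) and their summits (ticks) in each of the 15 libraries at H1f5, H1f3 and H3c2, as distance from the gene start in bp along the gene's strand. At H1f5 peaks reach the start at 72 h only, and at H3c2 the peak over the start is present in every library and widens at 72 h.

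Among the H2A and H2B genes, the pair on chromosome 11 fell most. Pileup in FPM at H2bu2, an H2B gene (chr11:58948246-58949396), was 5.26, 6, 6.63 and 6.65 in wild-type and 4.84, 2.79 and 6.92 in knockout libraries at 0 h, and 2.11, 2.07, 2.30 and 1.48 in wild-type and 1.65, 1.78, 1.58 and 1.40 in knockout libraries at 72 h. Every activated library lay below every untreated one, knockout library 3 at 0 h included, and the same held for relative pileup. The log2 change was −1.57 in FPM (SE 0.200, limma adjusted p = 5.87e-14) and −0.95 relative to the library (SE 0.0891, limma adjusted p = 2.09e-13). Its neighbour H2aw, an H2A gene (chr11:58953630-58955270), was 8.70, 8.83, 8.62 and 8.87 FPM in wild-type and 6.67, 3.63 and 8.48 in knockout libraries at 0 h, and 3.49, 3.67, 3.25 and 3.46 in wild-type and 3.52, 2.58, 2.73 and 2.95 in knockout libraries at 72 h. Knockout library 3 at 0 h lay within the range of the activated libraries, and the other untreated libraries lay above it. The relative change of H2aw was −0.55 (SE 0.0801, limma adjusted p = 3.36e-08), and relative values did not overlap between times.

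Among 7 regions that hold a divergent H2A and H2B pair with strands known for both genes, 2 rose relative to the library and 5 did not pass. Over all 21176 regions 34.4% were higher and 39.1% lower on this scale. H2ac12/H2bc12 (relative change 0.35, limma adjusted p = 7.32e-06) and H2ac8/H2bc8 (0.16, adjusted p = 0.0330) were higher. H2ac11/H2bc11 (0.14), H2bc7/H2ac7 (0.14), H2ac15/H2bc15 (0.07), H2bc13/H2ac13/H3c10 (−0.02) and H2ac22/H2bc22 (−0.10) were the others. In FPM, H2ac12/H2bc12 had a change of −0.27 and H2ac8/H2bc8 of −0.46. Of regions with an H2B and an H3 gene, H3c3/H2bc3 had a relative change of 0.28 (limma adjusted p = 2.27e-04, in FPM −0.34) and H2bc9/H3c7 of −0.23 (adjusted p = 0.00198, in FPM −0.85). At H2bc9/H3c7 the highest summit lay 1013 bp before the start of H2bc9 in 6 of 7 untreated libraries and near its start in 7 of 8 activated ones.

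At the H3 genes, the highest summit shifted from H2ac4 to H3c2, an H2A and an H3 gene that share a region (chr13:23750954-23752925). Relative pileup of the region was 0.724, 0.672, 0.615 and 0.719 in wild-type and 0.651, 0.574 and 0.689 in knockout libraries at 0 h, and 1.36, 1.62, 1.43 and 1.51 in wild-type and 1.19, 1.56, 1.38 and 1.29 in knockout libraries at 72 h. No activated library overlapped the untreated ones. The log2 change was 1.1 (SE 0.0881, limma adjusted p = 1.18e-15), a 2.14-fold rise, and 0.48 in FPM (SE 0.200, adjusted p = 0.0240), and without knockout library 3 at 0 h the change in FPM was 0.24 (adjusted p = 0.0690). The adjusted p in FPM was 0.0583 without wild-type library 2 at 72 h and 0.0578 without knockout library 2 at 72 h. The highest summit lay near the start of H2ac4 in all 7 untreated libraries and near the start of H3c2 in all 8 activated ones. The peak over the H3c2 start ended at most 201 bp after it at 0 h and 223 to 580 bp after it at 72 h. Over the H3c2 start, whose upstream sequence is printed above, relative pileup was 0.277 to 0.398 at 0 h and 1.19 to 1.62 at 72 h. The peak near the start of H2ac4 stood at 0.574 to 0.724 at 0 h, and at 0.855 to 1.15 in the 6 activated libraries where it was called apart from that of H3c2.

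H3c8, an H3 gene in the same block (chr13:23534768-23535903), rose relative to the library, from 1.58 ± 0.169 (SD, n = 4) in wild-type and 1.58 ± 0.0285 (SD, n = 3) in knockout cells at 0 h to 2.47 ± 0.354 (SD, n = 4) and 2.25 ± 0.158 (SD, n = 4) at 72 h. Its relative values did not overlap between times, and the log2 change was 0.57 (SE 0.0694, limma adjusted p = 3.95e-10), whereas in FPM it was −0.05. H3c6 fell by 0.34 relative to the library (limma adjusted p = 6.17e-06) and by 0.96 in FPM. H3c11 had a relative change of −0.21 over both genotypes (limma adjusted p = 0.0221), −0.46 in wild-type cells (adjusted p = 5.09e-04) and 0.04 in knockout cells (adjusted p = 0.813), and the difference between these 2 changes did not pass (0.50, 95% interval 0.16 to 0.84, limma adjusted p = 0.372). Without any 1 of 4 libraries, the adjusted p of H3c11 over both genotypes was 0.0518 to 0.108: wild-type library 4, knockout library 1 or knockout library 4 at 0 h, or wild-type library 2 at 72 h.

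On chromosome 3, the region between H3c15 and H2ac19 (chr3:96239243-96239771), beside an H3 and an H2A gene, was 0.992 ± 0.120 (SD, n = 4) in wild-type and 0.807 ± 0.0454 (SD, n = 3) in knockout cells at 0 h, and 1.67 ± 0.260 (SD, n = 4) and 1.62 ± 0.210 (SD, n = 4) at 72 h, as relative pileup. Untreated and activated libraries did not overlap. The log2 change was 0.87 (SE 0.0857, limma adjusted p = 9.11e-13), and 0.25 in FPM (adjusted p = 0.240). A region over the end of H3c15 and beyond it (chr3:96237245-96238630) was called in 1 of 7 untreated and 8 of 8 activated libraries (stratified exact p = 0.00204, adjusted p = 0.0121 over 83743 regions). The window of H3c15 matches that of H3c14 at 284 of 285 aligned columns, and H3c14 had a region of its own in 0 of 7 untreated and 3 of 8 activated libraries (adjusted p = 0.445).

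The H4 genes held the largest rise and several of the largest falls. H4c17 (chr13:21811940-21812721), whose peak lies past the end of the gene, was the lowest of the 38 regions, with 1.23 ± 0.355 (SD, n = 4) FPM in wild-type and 0.726 ± 0.347 (SD, n = 3) in knockout cells at 0 h, and 1.58 ± 0.0892 (SD, n = 4) and 1.34 ± 0.260 (SD, n = 4) at 72 h. These rest on 9 to 47 fragments at the summit. Relative pileup was 0.172 to 0.437 in wild-type and 0.192 to 0.233 in knockout libraries at 0 h, and 0.534 to 0.678 and 0.5 to 0.691 at 72 h, with no overlap between times. The relative change was 1.33 (SE 0.147, limma adjusted p = 3.11e-11). Its near copy H4c18 had a region in 14 of 15 libraries (adjusted p = 0.716 by the exact presence test).

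H4c3 (chr13:23697521-23698849) was 5.71, 8.07, 8.86 and 8.67 FPM in wild-type and 6.53, 3.79 and 7.01 in knockout libraries at 0 h, and 3.28, 3.12, 3.25 and 2.72 in wild-type and 2.98, 2.83, 3.54 and 2.105 in knockout libraries at 72 h. Every activated library lay below every untreated one. The log2 change was −1.15 in FPM (SE 0.196, limma adjusted p = 2.03e-08) and −0.53 relative to the library (SE 0.0844, adjusted p = 2.54e-07), and relative values overlapped across genotypes but not within either. The highest summit stayed within 11 bp of the start of H4c3 in all 15 libraries. H4c14, the H4 gene of the chromosome 3 block (chr3:96262292-96264213), was 2.24 ± 0.0433 (SD, n = 4) in wild-type and 2.14 ± 0.0766 (SD, n = 3) in knockout cells at 0 h and 1.75 ± 0.204 (SD, n = 4) and 1.49 ± 0.0433 (SD, n = 4) at 72 h as relative pileup, with no overlap between times. Its relative change was −0.44 (SE 0.0652, limma adjusted p = 5.21e-08), and −1.06 in FPM.

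Of the other H4 regions, H4c2 (relative change 0.38, limma adjusted p = 1.48e-04), H4c11 (0.35, adjusted p = 0.00249) and H4c9 (0.31, adjusted p = 0.00257) rose relative to the library, and H4c6 (−0.29, adjusted p = 0.00102) and H4c8 (−0.18, adjusted p = 0.0186) fell. H4c11 rested on knockout library 3 at 0 h, without which its relative change was 0.22 (adjusted p = 0.0736). H4c12 (0.20, adjusted p = 0.101) and H4c4 (−0.08, adjusted p = 0.403) did not pass. In FPM, H4c2 had a change of −0.25, H4c11 of −0.27 and H4c9 of −0.31, none past the threshold.

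**Figure D4:**
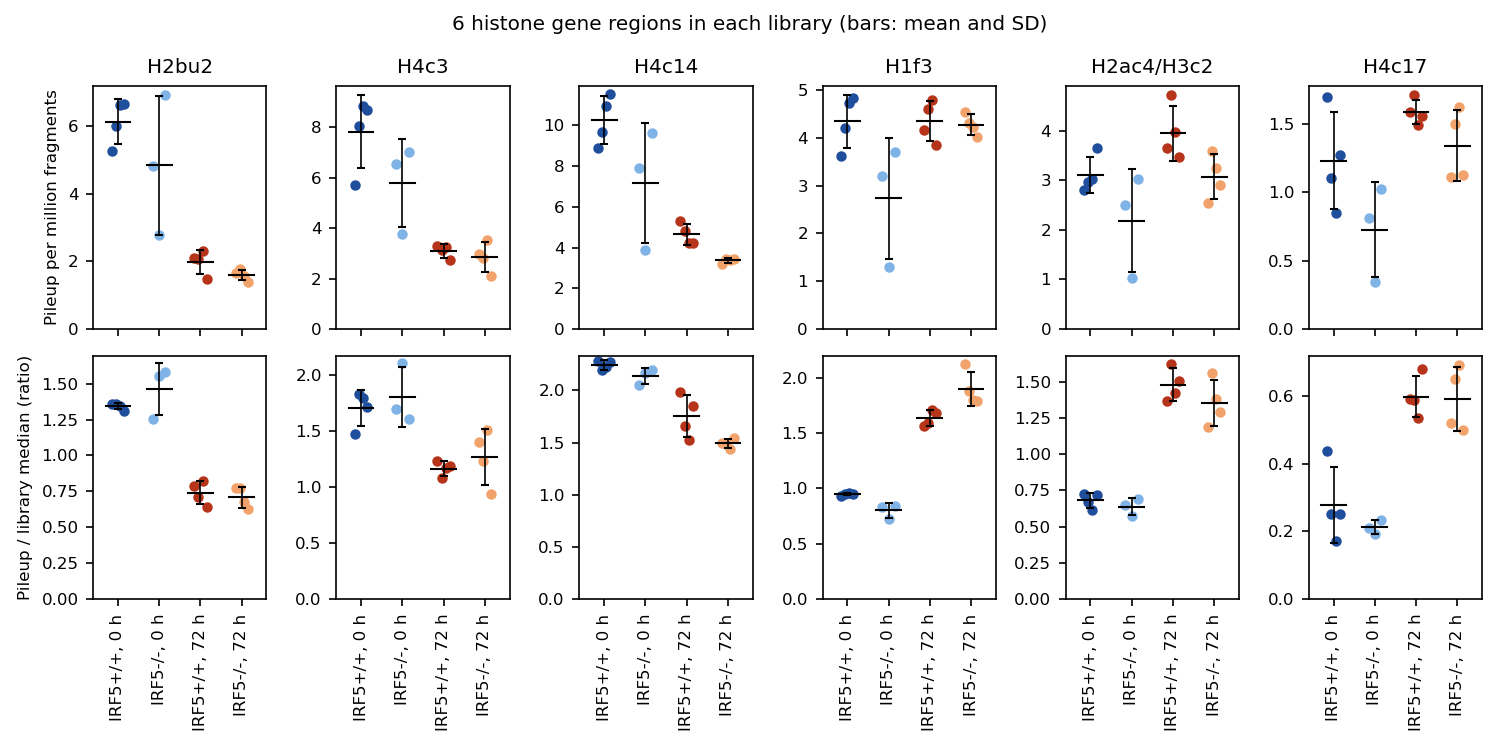
Pileup in FPM (upper panels) and relative pileup (lower) at 6 regions, 1 point per library, with mean and SD bars for each group. H2bu2, H4c3 and H4c14 are lower at 72 h on both scales, and H1f3, H2ac4/H3c2 and H4c17 are higher at 72 h on the relative scale, where their untreated and activated libraries do not overlap.

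Peaks present in some libraries only were tested by presence. Of the 47 regions, 2 were called more often after activation (18.4% of the 83743 regions were) and 0 less often (4.65%), by the stratified exact test with Benjamini-Hochberg adjustment. A region called in all 15 libraries cannot differ by presence. That held for 38 of the 47 (80.9%) but for 25.3% of all regions, so these shares are not like for like. With the replicate number as a further stratum (the replicate block) 0 were gained, and with equal numbers of peaks per library 4 were gained and 2 lost. Beside H3c15, the second was near the far end of the bounds of H2bc4, an H2B gene annotated over 8282 bp (chr13:23691773-23692445), called in 0 of 7 untreated and 8 of 8 activated libraries (exact p = 0.000408, adjusted p = 0.00399). Its pileup in FPM at 72 h was 2.84, 3.30, 3.22 and 1.55 in wild-type and 2.09, 1.78, 2.22 and 1.78 in knockout libraries. The other 7 regions missing from some libraries did not pass. H2ac10 had a peak in 4 of 7 untreated and 8 of 8 activated libraries (adjusted p = 0.207), and a region within the long annotated bounds of H2bc6 in 3 of 7 and 8 of 8 (adjusted p = 0.101). A further region within H2bc6 was called in 6 of 7 and 4 of 8, H2ac19 in 3 of 7 and 0 of 8, and H3c4 in 12 libraries in all. A region without a called peak is not shown to be closed.

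Genotype was compared at each time. At no histone gene region did knockout and wild type differ past the threshold at 0 h, at 72 h or in the activation change, on either scale, by limma with Benjamini-Hochberg adjustment. In FPM, 0% of all 21176 regions were called in each of these contrasts. On the relative scale 0.0331% of all regions were higher and 0% lower in knockout cells at 0 h, 0.94% higher and 0.264% lower at 72 h, and 0% and 0.00472% in the interaction. In FPM at 0 h, all 38 regions were lower in knockout cells, with a median of −0.62 against −0.52 over all regions, and 29 had an unadjusted p under 0.05 (36.8% of all regions did). Relative to the library the median at 0 h was −0.07 (0.03 over all regions) and 5 had an unadjusted p under 0.05 (7.92%). At 72 h the medians were −0.26 in FPM (−0.22 over all) with 0 at an unadjusted p under 0.05 (5.03% of all regions), and −0.03 relative (0.02 over all) with 5 (14.7%). In the interaction 1 region had an unadjusted p under 0.05 in FPM (2.14% of all regions did) and 3 did relative to the library (8.76%). Without knockout library 4 at 0 h, 38 of 38 regions were called lower at 0 h in FPM, as were 81.4% of 21265 regions, and 0 relative to the library. Without knockout library 3 at 0 h, the library with the lowest median pileup, 0 of 39 were called lower at 0 h in FPM (0.00413% of regions). The median difference at 0 h was then −0.22, against −0.13 over all regions. That setting called 2 of 39 lower at 72 h in FPM (4.81% of regions).

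At 72 h H3c11, an H3 gene, was 1.06, 0.975, 1.22 and 1.102 in wild-type and 1.31, 1.54, 1.34 and 1.23 in knockout libraries, which did not overlap. The difference, knockout minus wild type, was 0.32 on the log2 scale (95% interval 0.09 to 0.55, unadjusted p = 0.00796, limma adjusted p = 0.155). H2ac15/H2bc15 differed by −0.25 at 72 h (95% interval −0.44 to −0.06, adjusted p = 0.187). At 0 h the region beside H3c15 and H2ac19 differed by −0.29 (95% interval −0.55 to −0.04, limma adjusted p = 0.567) and H2bc6/H1f4 by −0.27 (adjusted p = 0.569). At H1f3 the difference was −0.25 at 0 h (limma adjusted p = 0.583) and 0.21 at 72 h (adjusted p = 0.317), and the interaction was 0.46 (95% interval 0.16 to 0.76, limma adjusted p = 0.355). The 95% intervals of the relative differences reached 0.17 to 0.43 either side at 0 h and 0.16 to 0.40 at 72 h. In FPM the regions with the lowest p were H4c17 (−0.85) and the region beside H3c15 (−0.84) at 0 h, both with an adjusted p of 0.126, and H2ac15/H2bc15 (−0.49) and H4c14 (−0.46) at 72 h, both with 0.812. By presence, 0 of the 47 regions differed between genotypes (0% of 83743), 0 had an unadjusted p under 0.05 against 1168 of all regions, and no promoter window of the 14955 tested differed (0%). The 38 regions called in all 15 libraries could not differ by presence, and the exact test can miss a change shared by few regions.

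**Figure D5:**
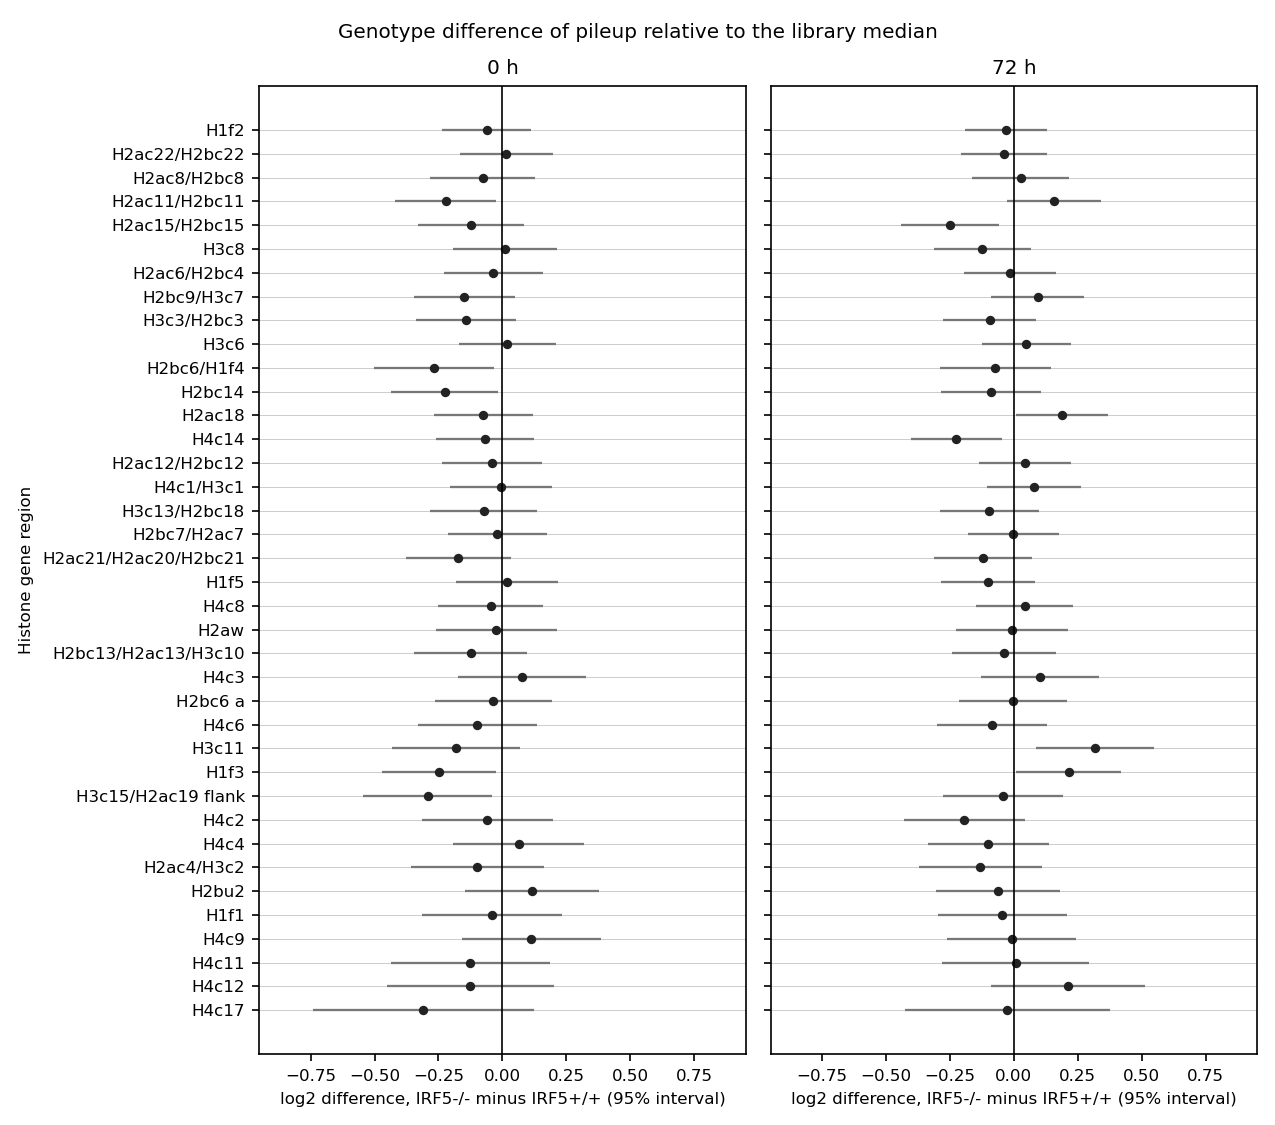
Difference in relative pileup, knockout minus wild type, on the log2 scale with 95% intervals at the 38 regions, at 0 h (left) and 72 h (right). Differences lie between −0.31 (H4c17 at 0 h) and 0.32 (H3c11 at 72 h), and no region passed the threshold after adjustment over 21176 regions.

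Genes that supply histone mRNA and handle new histones were taken from a list of 25, all with a peak called in all 15 libraries. Each gene stands for 1 region, the one within 1 kb with the highest mean pileup. Pileup was higher in most untreated libraries, so this choice may favour regions that fall, and all regions are not a like background. Other regions of a gene may differ (Pou2f1 had 11 regions). In FPM, 0 of 25 rose (8.89% of all regions) and 23 fell (65.4%) with activation, with a median of −0.87 against −0.66 over all regions. Relative to the library 3 rose (34.4%), 17 fell (39.1%) and 5 did neither, with a median of −0.24 against −0.04 over all regions. The 3 that rose on that scale were Chaf1a, a subunit of the CAF-1 chaperone that places H3 and H4 on new DNA (0.64, limma adjusted p = 5.28e-11), Cdk2, the kinase of S phase entry (0.63, adjusted p = 3.34e-10), and Slbp, whose protein binds the histone mRNA stem-loop (0.14, adjusted p = 0.0320). In FPM the changes of Chaf1a (0.02, limma adjusted p = 0.947) and Cdk2 (0.01, adjusted p = 0.959) did not pass, and Slbp fell by 0.48 (adjusted p = 0.0173). The lowest were Eri1, an exonuclease that trims histone mRNA ends (−0.92, adjusted p = 2.13e-15), and Cpsf3, the endonuclease that cuts them (−0.76, adjusted p = 2.62e-15). Npat, the coactivator of histone gene transcription at histone locus bodies, fell by 0.45 (limma adjusted p = 4.79e-10), and Casp8ap2, which works beside it, by 0.53 (adjusted p = 1.35e-12). By genotype 1 of 25 was called, Ccne1, the gene of cyclin E1, with a relative difference of 0.35 at 72 h (limma adjusted p = 0.0354). On that scale 0.94% of all 21176 regions were higher and 0.264% lower in knockout cells at 72 h. In FPM the difference of Ccne1 was 0.11 and did not pass (limma adjusted p = 0.875).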

How the data were processed

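The 23 deposited files are 15 peak lists of single libraries, 4 of merged replicates and 4 final lists. The authors trimmed reads with Trim Galore 0.5.0 and aligned them to mm10 with Bowtie2 2.2.9, per the submitters' processing notes, which also name HOMER 4.10.4. Peaks were called with MACS2 2.1.1.20160309 on read pairs without a control, keeping 1 fragment per position, at a q-value cutoff of 0.05, per the file headers. The deposited pileup is a coverage signal, the number of fragments over a summit, not scaled. The deposited fold enrichment is the ratio of pileup to local background that the authors' MACS2 run gave. Deposited −log10 values of p and q come from the same run, and the deposited final lists also hold its score. Per the file headers, the alignment behind wild-type library 4 carries the number 5 at 0 h and at 72 h.

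Peaks of the 15 libraries were merged where they overlap by at least 1 bp (111393 regions), and 83743 seen in at least 2 libraries were kept. A region's value was its highest pileup in FPM (its per-million value, over fragments after filtering). The 21176 regions called in all 15 libraries were fitted on the log2 scale with limma 3.58.1 (R 4.3.3), with a trend, one mean per group and Benjamini-Hochberg adjustment over all of them, with no pseudocount. Activation is the mean of both genotypes' changes. Relative pileup centres each library on its median over these regions. Presence was tested by a two-sided exact test stratified by the other factor (smallest p 0.000408), adjusted over 83743 regions. The tests were checked on simulated data for activation, and neither called a region with nothing planted. With 200 planted changes, limma on relative pileup recovered 28.4% at a log2 size of 0.3, 73.1% at 0.5 and 100% at 1, with 3 false calls. In the data 34.4% of regions were higher and 39.1% lower with activation on this scale. The adjustment is less strict with so many changes, so these rates do not describe that test as run. The exact test recovered 0 of 200 planted changes and 93.8% of 15000 (with 243 other calls), so it can miss changes that few regions share. Python 3.11.15 with numpy 2.4.6, pandas 2.3.3, scipy 1.17.1, biopython 1.88 and matplotlib 3.10.9 was used. Depth was 20.5 M to 29.0 M fragments, and error bounds cover the spread between libraries.

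The histone genes and gene lists were chosen with earlier results of these data known, and no list was tested. Named regions were the 5 highest and 5 lowest in level, up to 10 per direction of activation change, the 2 with the lowest p per genotype contrast, and every region not called in all libraries; other regions, and genes of the lists beyond the 4 largest changes, were named after their values were seen. Alternatives were other scalings, quantile normalization, fold enrichment, missing peaks at the lowest listed pileup, no trend, a −log10 q of at least 5, an equal number of peaks per library (29994), regions in at least 1 or 4 libraries, a cover of 0.5 of the region, distances of 0 or 5 kb, an unstratified test, a block for the replicate number, and leaving out each library. Some were chosen after seeing the data: the tests of promoter windows, relative pileup with each library left out or with the block, and an equal number of peaks in 14 libraries (39807). No genome sequence was used here, so sequences are those of the RefSeq promoter table. One B cell marker gene is not reported here.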

Additional observations from a re-analysis of the deposited data

Results flagged for a closer look

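In 3 of 78 groups of 4 libraries, over 26 regions, 1 library stood apart from the other 3 by a gap test at the 95% level, which chance alone gives in about 1 in 20 groups. All 3 concern wild-type library 1 at 0 h and its relative pileup. It was 2.22 at H2ac11/H2bc11 (1.95 to 1.96 in the others), 2.29 at H2ac15/H2bc15 (1.89 to 1.93) and 0.977 at H4c9 (0.762 to 0.797). No cause was tested.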

How the results depend on the processing

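The scale decides most activation calls. Of the 38 regions, 2 rose and 27 fell in FPM. Centring each library gave 11 and 11 (median −0.034), quantile normalization gave 16 and 7 (median 0.11), fold enrichment gave 2 and 30 (median −0.46), and filling missing peaks gave 7 higher. The higher count was 1 with the replicate block, 1 at a −log10 q of at least 5 and 1 with equal numbers of peaks. Presence gains were 2, but 4 with equal numbers of peaks and 6 at a cover of 0.5, where 23 regions were called in all libraries. They were 0 with the replicate block, under which the exact test cannot pass the adjustment. Filled peaks, stricter q, equal numbers, the cover and the block also change which regions can be called over the whole genome. Shares over all regions are not given for them, so their counts do not set the histone genes against other regions. Losses were 2 with equal numbers of peaks and 1 with equal numbers in 14 libraries. In FPM, relative rises reversed at H2ac8/H2bc8 (−0.46), which was outside the 10 named, and at H3c8 (−0.048), H4c2 (−0.25), H4c11 (−0.27), H2ac12/H2bc12 (−0.27), H4c9 (−0.31) and H3c3/H2bc3 (−0.34). By fold enrichment they reversed at H2ac8/H2bc8 (−0.46), at the region beside H3c15 (−0.22), H4c2 (−0.48), H4c11 (−0.11), H2ac12/H2bc12 (−0.65), H4c9 (−0.62) and H3c3/H2bc3 (−0.79). Leaving out each library gave 1 to 3 higher and 23 to 34 lower in FPM, with the lowest median −0.82 and the highest −0.55. It gave 10 to 14 higher and 9 to 16 lower relative to the library, with a median of −0.12 to 0.00020. It gave 0 to 38 lower by genotype at 0 h and 0 to 2 at 72 h in FPM, and an adjusted p of 0.0280 to 0.0508 for the H1f5 window. Among named regions 469 of these values kept direction and side of the threshold and 11 lost the threshold. Under other settings 124 kept both, 11 lost the threshold and 12 reversed. Whether the replicate numbers pair libraries is not stated, and correlations among so few libraries per group cannot settle it. Over 21 same-number pairs correlations were −0.17 to 0.23 and 1 was over 0.1, with a median of 0.008. The median over 63 other pairs was −0.0006, and 3 of 15 libraries correlated best with their own number. With the block 12 rose and 11 fell relative to the library, again without shares over all regions. The rise in FPM of H2ac4/H3c2 then had a limma adjusted p of 0.0577. Except where construction shows it (fewer libraries or peaks), the cause was not tested.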

Other observations

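Histone genes that are also expressed outside S phase, and that lie outside the clusters, were also measured. Each stands for its region within 1 kb with the highest mean pileup, a choice that may favour regions that fall, as above. Of 10 such genes, 8 had a peak called in all 15 libraries, and in FPM 0 of those rose (8.89% of all regions did) and 7 fell (65.4%) with activation. Relative to the library 1 rose (34.4%) and 4 fell (39.1%). Relative to the library, H2afy, the gene of macroH2A1, rose by 0.32 on the log2 scale (limma adjusted p = 0.00839). H2afv (−0.43, adjusted p = 4.80e-09) and H2afz (−0.20, adjusted p = 0.00319), the genes of H2A.Z, and H3f3a (−0.40, adjusted p = 6.05e-06) and H3f3b (−0.29, adjusted p = 3.72e-05), the genes of H3.3, fell, and H2afx, H2afj and H1f0 did neither. Peaks lay near H2afy2, the gene of macroH2A2, in 0 of 7 untreated and 6 of 8 activated libraries, and near H1fx, the gene of H1.10, in 0 of 7 and 8 of 8.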
